A study of Mus musculus with 3 samples.

Results

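Small nucleolar RNAs (snoRNAs) and small Cajal body RNAs (scaRNAs) were measured in cultured mouse sensory neurons kept in 3 media. The genes were chosen by name and by level: every gene of the array's annotation whose symbol starts with Snora, Snord or Scarna, read by a probe set (a group of probes summarised to 1 value) with a single symbol, and with a mean log2(intensity + 1) over the 3 arrays of 5.5 or more. Of 68 genes so named, 49 met that level, out of 30145 genes with a single-symbol probe set, of which 17595 were at 5.5 or more. They comprised 32 of 44 box C/D genes (Snord symbols), 15 of 18 box H/ACA genes (Snora) and 2 of 6 scaRNA genes (Scarna). Since level chose the genes, their levels are given as a description. The 3 genes just inside were Snora16a (5.64), Snord17 (5.68) and Snora2b (5.72), and the 3 just outside were Snord15a (5.495), Scarna2 (5.49) and Snora62 (5.33).

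The cells were dorsal root ganglion neurons of male ICR mice aged 8 to 10 weeks, cultured for 72 hours. One array came from control medium, DMEM with the supplement B27. A second came from the same base with 1 µg/ml of recombinant SEMA3E, a secreted semaphorin that acts on growing axons through the receptor plexin D1, and the last from SEMA3E at 1 µg/ml plus a SEMA3E-blocking IgG, also at 1 µg/ml. ICR is an outbred strain, the number of mice behind each array is not given in the sources used here, and an IgG without blocking activity is not among the 3 media. With 1 array per medium no difference has a replicate, an error or a test, and precision is limited by the array number.

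SnoRNAs guide the chemical modification of ribosomal RNA in the nucleolus. Box C/D RNAs pair with their target and position the methyltransferase fibrillarin, which methylates ribose, while box H/ACA RNAs position the pseudouridine synthase dyskerin. ScaRNAs do the same for spliceosomal RNAs in Cajal bodies, and a few snoRNAs act in cleaving the ribosomal precursor instead. In mammals most of these RNAs are cut from introns of other genes, many of which encode ribosomal proteins or translation factors, so that 1 transcript yields both a messenger RNA and a guide RNA.

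The RefSeq tables used here held sequence over the span of a single one of the 49 genes, Snora19, because a microRNA hairpin (Mir3084-2) is annotated over exactly the same bases. The hairpin is shown with the letters ACA 3 bases before its 3′ end in capitals, since box H/ACA RNAs are named in part for these letters at that place. The span is chr19:60774330-60774385 of GRCm38.p6, read 5′ to 3′ on the minus strand, which is the strand of the hairpin. The gene table gives no strand for Snora19, so the match describes the hairpin and is not shown to be the box of Snora19.
Mir3084-2, over the span of Snora19: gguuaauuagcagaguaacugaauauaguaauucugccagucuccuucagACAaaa
ACA stood at the same place before the 3′ end, on their own strand, in 16 of the 1005 microRNA hairpins of the table (1.59%). Snora19 had 83.6 intensity units in all 3 arrays. Because the hairpin lies on the same letters, probes for Snora19 could also read the precursor of that microRNA.

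The cultures carried RNA of sensory neurons and of the other ganglion cells. All 8 neuronal markers looked at, among them Tubb3, Prph and Scn10a, were at 5.5 or more, as were the 9 measured markers of satellite glia, Schwann cells and fibroblasts and 3 of 4 macrophage markers (Csf1r was at 4.97 in every array). Of these 20 markers, 10 were identical in the 3 arrays and 10 differed, where 25.2% of all genes at 5.5 or more did. A ratio of at least 5 to 4 was reached by 1 of them, against 1.53% of all genes. This was the satellite glial channel gene Kcnj10, at 8.64 in control medium, 8.40 with SEMA3E and 8.10 with the IgG on the log2 scale. Of the 8 neuronal markers, 4 were lower with SEMA3E than in control medium and 0 higher, against 12.4% and 6.22% of all genes. The mean log2 level over the satellite glial markers spanned 0.182 between arrays, and those over each of the other marker lists spanned at most 0.0442. The span of 0.182 lay between control medium and the IgG array, where Kcnj10 alone of the satellite glial markers differed. Apoe was identical in the 3 arrays, and Fabp7 was 0.128 higher with SEMA3E alone. Each array held 65956 probe sets with a median between 44.52 and 44.97 units. In bulk RNA, fewer cells of a type and less RNA per cell cannot be told apart.

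The 49 genes differed between arrays more often than genes at large. In 30 of them (61.2%) the value was not identical in the 3 arrays, against 25.2% of all 17595 genes at 5.5 or more. By a ratio of at least 5 to 4 between 2 arrays (0.322 on the log2 scale) in any comparison, 10 of 49 stood apart (20.4%), against 1.53% of all genes. By 1.5-fold these were 3 of 49, against 0.33%, and by 2-fold 0 of 49, against 0.0455%. These shares describe 3 arrays and have no test. The 13 genes with a mean of 9 or more all differed, against 34.5% of all genes between 9 and 13. Below 9 the share was about the same at both levels: 7 of 15 genes between 7 and 9 differed (46.7%), against 19.4% of all genes, and 10 of 21 below 7 (47.6%), against 16.1%.

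**Figure D1:**
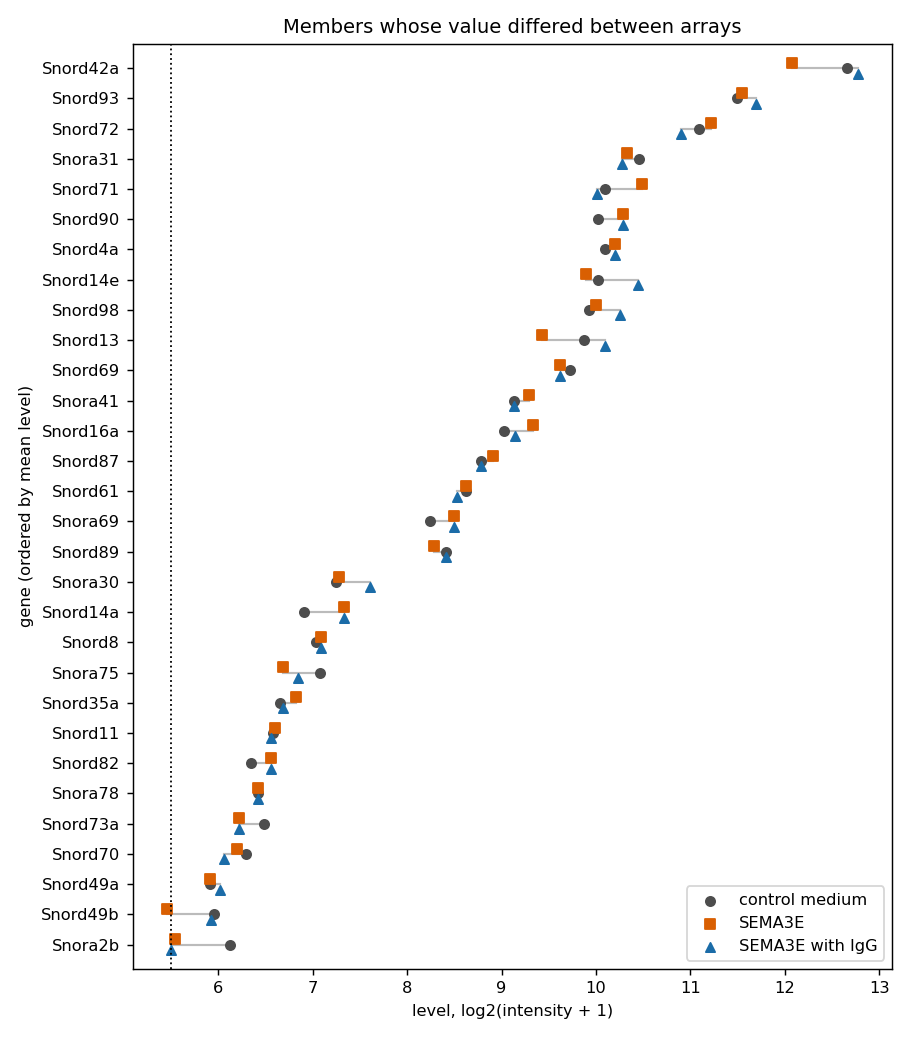
Level of the 30 genes whose value was not identical in the 3 arrays, on the log2(intensity + 1) axis, with 1 row per gene ordered by mean level; circles are control medium, squares SEMA3E and triangles SEMA3E with IgG, set slightly apart vertically so that equal values remain visible, and the dotted line is the threshold of 5.5. Snord42a is the brightest at 12.07 to 12.77, Snord13 and Snord42a have their square on the left, and Snord71 has its square on the right.

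Between SEMA3E and control medium, 16 of the 49 genes were higher with SEMA3E, 11 lower and 22 identical. Over all genes 6.22% were higher and 12.4% lower. At a ratio of 5 to 4 or more, 2 were higher (Snord14a and Snord71; 0.335% of all genes) and 5 lower (Snord42a, Snord13, Snord49b, Snora75 and Snora2b; 0.392% of all genes). The median difference over the 49 was 0, as it was over all genes, and among those that differed the median size was 0.16 on the log2 scale, against 0.06 over all differing genes.

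Snord42a, a box C/D guide for ribosomal RNA methylation, was the brightest of these probe sets. It had 6471 intensity units in control medium, 4309 with SEMA3E and 7002 with SEMA3E and IgG. The SEMA3E array was the low one, by a log2 difference of −0.59 from control, and the array with IgG lay 0.70 above it and 0.11 above control. Snord13 is an independently transcribed box C/D RNA that guides acetylation, not methylation, of the small ribosomal subunit's RNA. It had 933 units in control medium, 686 with SEMA3E and 1092 with the IgG, differences of −0.44 from control to SEMA3E and 0.67 from SEMA3E to the IgG. A second probe set of Snord13 gave 9.16, 8.76 and 9.27 on the log2 scale, so the SEMA3E array was lowest by both, with −0.41 and 0.51. Snord49b, a box C/D RNA, also had its lowest value with SEMA3E, with 60.8, 43.0 and 59.9 units, so that control was the highest here, and its SEMA3E value of 5.46 lay below the threshold. Snora75, a box H/ACA RNA encoded within the nucleolin gene, had 134 units in control medium, 102 with SEMA3E and 114 with the IgG, so that part of the distance to control remained.

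Snord71, a box C/D RNA, was the reverse of Snord42a in its order of arrays. It had 1094 units in control medium, 1434 with SEMA3E and 1031 with the IgG, which are log2 differences of 0.39 and −0.47. The SEMA3E array was the high one for Snord16a as well, with 519, 645 and 565 units, a difference of 0.315, just short of the limit of 0.322. For Snord72 it was again the high one, at 2177, 2380 and 1914 units, and here the IgG array was the lowest. Across the 49 genes the SEMA3E array was the lowest of the 3 in 6 and the highest in 8, against 6.96% and 4.18% of all genes. The SEMA3E array enters both comparisons, so a deviation of that array alone would give both the first difference and its return.

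Between SEMA3E with IgG and SEMA3E alone, 10 of 49 genes were higher with the IgG, 13 lower and 26 identical, against 10.2% higher and 10.3% lower over all genes. At a ratio of 5 to 4 or more, 4 were higher (Snord42a, Snord13, Snord14e and Snord49b; 0.472% of all genes) and 1 lower (Snord71; 0.307%). Snord14e belongs to a family of box C/D RNAs that take part in cleavage of the ribosomal precursor. It had 1038 units in control medium, 953 with SEMA3E and 1392 with the IgG, so the IgG array was the high one, by 0.55 over SEMA3E and 0.42 over control. Snora30, a box H/ACA RNA, had 150 units in control medium, 154 with SEMA3E and 193 with the IgG. Its difference of 0.321 between the last 2 lay just under the limit, and that of 0.36 from control lay above it.

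Between SEMA3E with IgG and control medium, 15 of 49 were higher, 12 lower and 22 identical, against 7.61% and 11.4% of all genes. At a ratio of 5 to 4 or more, 4 were higher (Snord14a, Snord14e, Snora30 and Snord98; 0.341% of all genes) and 1 was lower (Snora2b; 0.546%). Snord14a, of the same family as Snord14e, had 119 units in control medium and 161 in both media with SEMA3E, a log2 difference of 0.43. The close similarity of Snord14 copies means that their probes may read more than 1 of them, and Snord14a and Snord14e did not share an order of arrays. Snora2b had 69.0 units in control medium, 45.5 with SEMA3E and 44.1 with the IgG, a difference of −0.59 with SEMA3E alone and −0.63 with the IgG. Both media with SEMA3E were the low ones here, although the IgG value of 5.497 on the log2 scale was at the threshold. Snord98 had 969 units in control medium, 1022 with SEMA3E and 1219 with the IgG, a difference of 0.33 from control.

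**Figure D2:**
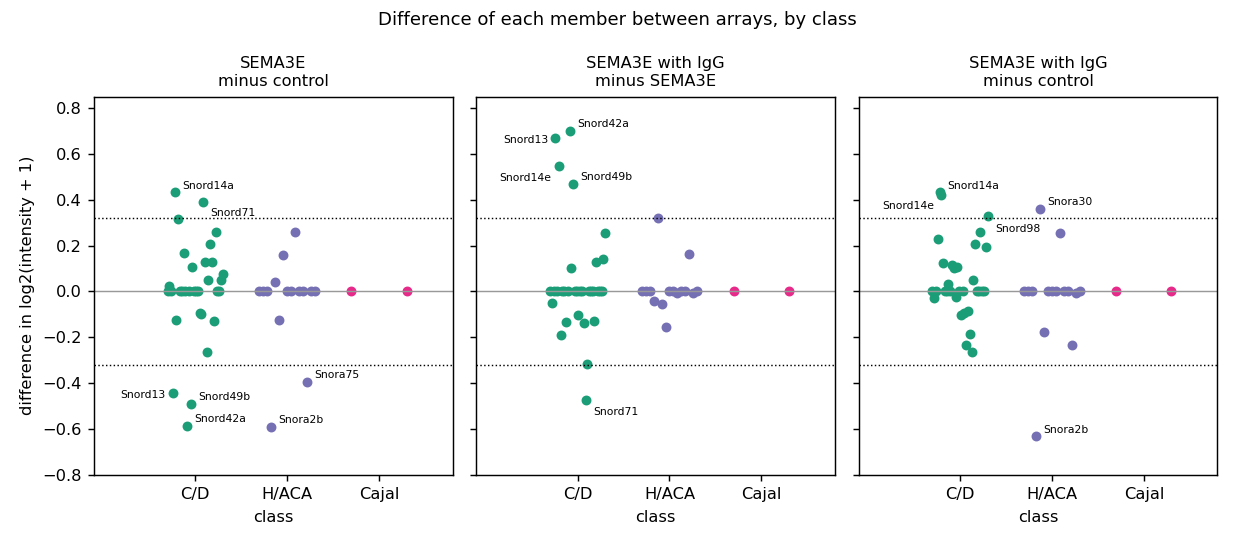
Difference in log2(intensity + 1) of each of the 49 genes in the 3 comparisons, with 1 point per gene spread sideways within its class; dotted lines mark a ratio of 5 to 4 and genes past them are named. Both Cajal body RNA genes lie at 0 in each panel, and the points past the lines are 7 box C/D and 3 box H/ACA genes over the 3 panels.

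The box C/D and box H/ACA classes differed in how often their probe sets held identical values. Of 32 box C/D genes 9 were identical in all 3 arrays (28.1%), against 8 of 15 box H/ACA genes (53.3%). Both scaRNA genes, Scarna17 and Scarna10, were identical as well. Over all genes 74.8% were identical, above the shares of the box C/D and box H/ACA genes. The box C/D genes had a median level of 8.19 on the log2 scale and the box H/ACA genes 6.95; the part of brightness in the classes' shares was not tested, and the brightness of a probe set also depends on its probes. At 5 to 4 in any comparison the shares of box C/D and box H/ACA genes were close. They were 7 of 32 box C/D genes (21.9%) and 3 of 15 box H/ACA genes (20%), against 1.53% of all genes. No difference between the classes was tested, since genes of 1 class on 3 arrays are not replicates.

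By direction, 13 box C/D genes were higher with SEMA3E than in control medium and 8 lower, while box H/ACA genes had 3 each way. With the IgG against SEMA3E alone, 8 box C/D genes were higher and 8 lower, and 2 box H/ACA genes were higher and 5 lower. Against control, the IgG array had 13 box C/D genes higher and 8 lower, and 2 box H/ACA genes higher and 4 lower. Both of these classes therefore held genes of either direction in each comparison. Over all genes, in the same order of comparisons, 6.22% were higher and 12.4% lower, 10.2% and 10.3%, and 7.61% and 11.4%.

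Among box C/D genes short of 5 to 4, those with SEMA3E in either medium above control formed one set. Snord90 had 1039 units in control medium and 1244 in both others, Snord4a 1091 and 1175, Snord82 80.4 and 93.1, and Snord8 130 and 135. Together with Snord14a these were 5 of 49 genes (10.2%) in which control alone was lower and the other arrays were identical, a pattern held by 1.36% of all genes. Snord69 (842 and 788 units) and Snord73a (88.4 and 73.5) were higher in control medium alone, a pattern of 2 of 49 genes (4.08%) and of 3.27% of all genes. Because the summary gave exactly the same value in both SEMA3E arrays, small differences between those arrays cannot be seen in these genes.

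In Snord93, the second brightest, values were 2890, 2996 and 3303 units in the order control, SEMA3E, SEMA3E with IgG, and in Snord70 they were 77.4, 72.4 and 65.8, so the IgG array lay furthest from control in both. Snord87 had 440 units in control medium and with the IgG and 481 with SEMA3E. Snord89 was the opposite, with 339 units in both of these and 310 with SEMA3E. Snord61 had 394 units in both arrays without IgG and 367 with it, and Snord49a had 59.4 and 63.9. Snord35a (99.5, 112 and 102 units) and Snord11 (94.8, 96.3 and 92.9) were slightly higher with SEMA3E.

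Among box H/ACA genes, Snora31 was the brightest, with 1403 units in control medium, 1287 with SEMA3E and 1241 with the IgG. Snora41 had 558 units in control medium and with the IgG and 623 with SEMA3E. Snora69 had 301 units in control medium, 361 with SEMA3E and 359 with the IgG, and Snora78 was 84.9, 84.9 and 84.4. Snora31 was thus highest in control medium, Snora41 with SEMA3E, and Snora69 was lowest in control medium. None of these 4 reached a ratio of 5 to 4.

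The 19 genes identical in all 3 arrays included several with known roles. Snora73a and Snora73b, copies of a box H/ACA RNA that acts in cleavage of the ribosomal precursor, had 72.0 and 122 units, and a second probe set of Snora73b was also identical throughout. Snord64, from the imprinted region affected in Prader-Willi syndrome, had 240.2 units. The remaining identical genes of the box C/D class were Snord104, Snord123, Snord58b, Snord23, Snord92, Snord91a, Snord35b and Snord17, between 50.2 units (Snord17) and 308 (Snord104). Those of the box H/ACA class were Snora21, Snora68, Snora7a, Snora47, Snora16a and Snora19, between 49.0 (Snora16a) and 207.0 units (Snora21). The scaRNA genes Scarna17 and Scarna10, guides for spliceosomal RNA, had 113 and 68.6 units. Snord58b was read by 2 probe sets with identical values of 8.14 on the log2 scale, which therefore count once. Snord118, a box C/D RNA needed for maturation of the large subunit's RNA, was below the threshold at 4.84. Of all 19 genes below it, 12 were identical and 1, Snord66, was past 5 to 4, with 4.92 with SEMA3E and 5.39 with the IgG. These counts are given without the shares of all genes below 5.5 and are a description only.

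Most of these RNAs lie within another gene, and the probe sets of those genes differed less often than those of the small RNAs, at a share near that of all genes. By the RefSeq table (GRCm38.p6), used here for which genes contain each other and holding no strand, 47 of the 49 genes lay within the span of a larger gene; Snord13 and Snord89 did not. Of the 49, 14 lay within 13 ribosomal protein genes, and 9 of these 14 differed between arrays (64.3%), against 21 of the 35 others (60.0%). For 28 of the 49 a containing gene had a single-symbol probe set at 5.5 or more. These 28 containing genes were identical in the 3 arrays in 21 cases; 7 differed, where 25.2% of all genes did, and 0 reached a ratio of 5 to 4, against 1.53% of all genes, while of the 28 small RNA genes 19 differed and 6 reached it.

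**Figure D3:**
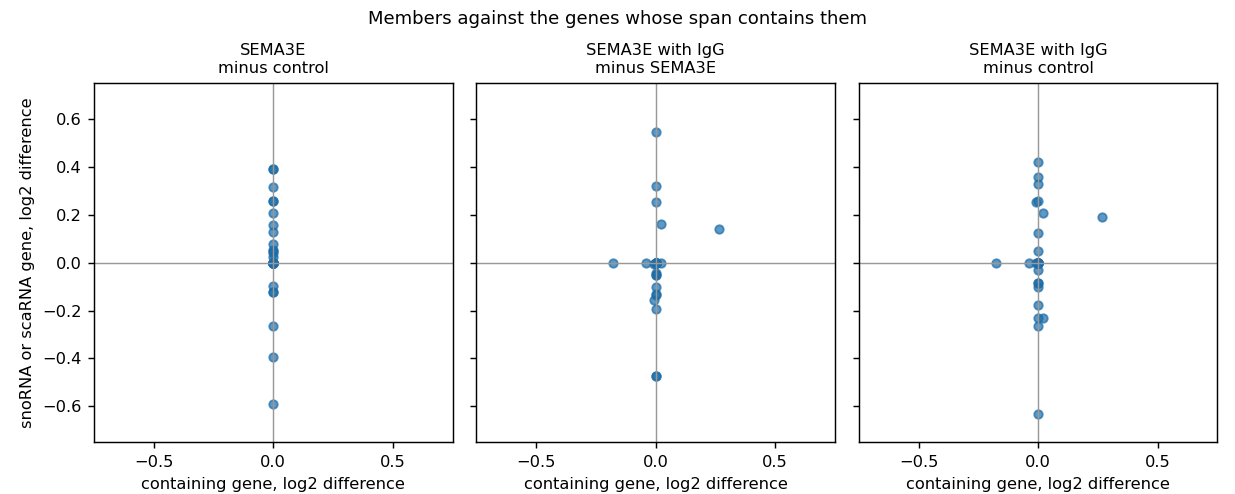
Log2 difference of each small RNA gene (vertical) against that of the gene whose span contains it (horizontal), for the 28 genes with a measured containing gene, 1 panel per comparison; a small RNA gene within 2 genes has 2 points. Points lie along the vertical line at 0, between −0.63 and 0.55, and the containing gene furthest from 0 is at 0.27.

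Snord71 lies within Ap1g1, which encodes a clathrin adaptor subunit and had 12.54 on the log2 scale in all 3 arrays. Snora2b lies within Kansl2, a gene of a histone acetyltransferase complex, which had 9.97 throughout, and Snora30 within the chromatin remodeller gene Srcap, at 8.60 throughout. Snord98 lies within Ccar1, at 11.74 throughout. Snord14e lies within the heat shock cognate gene Hspa8, whose probe set was near the top of the scale at 18.70 in each array after rounding, and it is uncertain because other copies of Hspa8 sequence in the genome may add to it.

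In 4 containing genes with a pair of small RNAs that differed, the pair did not share a direction between SEMA3E and control; these pairs were chosen after their values were seen. In the gene of nucleolin, a nucleolar protein, Snora75 was lower with SEMA3E (−0.39) and Snord82 higher (0.21), while Ncl itself had 12.48 in both arrays and 12.50 with the IgG. In Rpl23a, whose 2 probe sets have several symbols each and are not used here, Snord42a was lower (−0.59) and Snord4a higher (0.11). In 2410006H16Rik, Snord49b was lower (−0.49) and Snord49a identical. In Nop58, which encodes a core protein of box C/D particles, Snord70 was lower (−0.10) and Snord11 higher (0.02), and Nop58 had 11.98 in all arrays. Among containing genes the one furthest apart was the noncoding RNA gene 2700038G22Rik, which holds Snord93. It was identical in control medium and SEMA3E and 0.27 higher with the IgG, where Snord93 was 0.14 higher.

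Genes of the proteins that carry these RNAs differed about as often as genes at large. Of 27 such genes at 5.5 or more, from lists of particle proteins, assembly factors, Cajal body and nucleolar proteins and trimming enzymes, 21 were identical in the 3 arrays, 6 differed (25.2% of all genes did) and 0 reached 5 to 4 (1.53% of all genes). The methyltransferase gene Fbl had 11.62 in every array. Dkc1, which encodes dyskerin, had 9.43 in control medium and 9.54 in both others, a log2 difference of 0.10, while its partners Nhp2, Nop10 and Gar1 were identical. The assembly factor gene Znhit3 was the furthest apart of the 27, at 10.47 in control medium and with SEMA3E and 10.35 with the IgG. Dis3, a ribonuclease of the exosome, had 9.20 in these arrays and 9.31 with the IgG. Of the host RNA genes Snhg5, Snhg6, Snhg10 and Snhg14 were identical, Snhg11 was 0.04 lower with SEMA3E, and Snhg18 was 0.18 lower with the IgG.

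Noncoding RNAs of the nucleolus outside the Snora, Snord and Scarna names were also looked at. Rnu3a, which encodes the box C/D RNA of the main precursor-processing particle, had 8.36 in control medium and with the IgG and 8.15 with SEMA3E. Rnu3b1 had 7.01 in control medium and 6.91 in the others. Rpph1, the RNA of ribonuclease P, had 10.33, 10.29 and 10.33, whereas Terc, the telomerase RNA with a box H/ACA domain, was at 5.99 and Rmrp at 5.59 in every array. The SEMA3E array was lowest for Rnu3a and Rpph1, a pattern of 6.96% of all genes, and shared the lowest value for Rnu3b1. Of the 5, 2 were identical in the 3 arrays, against 74.8% of all genes. A ratio of 5 to 4 was reached by 0 of the 5, against 1.53% of all genes, and so few genes cannot show a lower share.

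**Figure D4:**
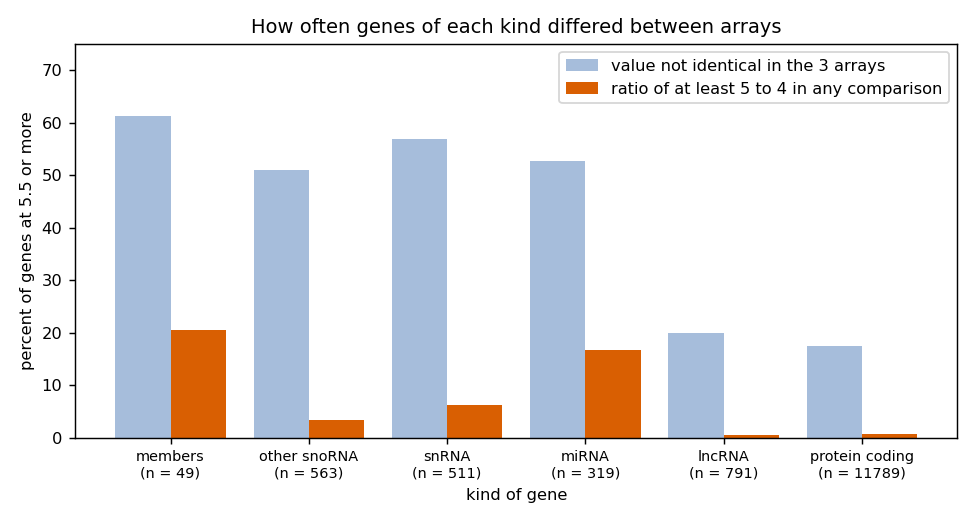
Percent of genes at 5.5 or more whose value was not identical in the 3 arrays (pale bars) and percent with a ratio of at least 5 to 4 in any comparison (dark bars), for the 49 genes, other snoRNA and guide RNA genes, and 4 other kinds of gene by RefSeq biotype. The pale bars reach 51.0% to 61.2% for the 4 kinds of small RNA and 17.4% to 19.8% for long noncoding and protein-coding genes; the dark bars are 20.4% for the 49 genes and 16.6% for microRNA genes.

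Other kinds of small RNA gene had shares of differing genes near that of the 49, and smaller shares past 5 to 4, though that of microRNA genes was close. RefSeq lists 563 further snoRNA and guide RNA genes at 5.5 or more, nearly all under provisional symbols, of which 51.0% differed and 3.37% reached a ratio of 5 to 4. Among 511 small nuclear RNA genes these shares were 56.9% and 6.26%, among 319 microRNA genes 52.7% and 16.6%, and among 11789 protein-coding genes 17.4% and 0.738%. At 1.5-fold the share of microRNA genes was 6.27%, against 6.12% of the 49 genes. It was 0.178% for the further snoRNA and guide RNA genes and 0.587% for small nuclear RNA genes. Genes of these kinds can be near copies that share probes, so they are not independent of each other.

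Directions differed by kind. Of the 563 further snoRNA and guide RNA genes, 219 were higher and 41 lower with SEMA3E than in control medium, and 46 were higher and 205 lower with the IgG than with SEMA3E alone. Of the 511 small nuclear RNA genes, 46 were higher and 169 lower with SEMA3E, and 240 higher and 30 lower with the IgG. In these comparisons the larger side stayed the same under centring and quantile normalization. Loess gave a median shift of 0 over all genes and returned the deposited counts, so it was no check here. With the IgG against control, 118 of the 563 genes were higher and 55 lower, which turned to 74 and 99 under centring, while the small nuclear RNA genes had 215 higher and 24 lower, and 204 and 35 under centring. The 49 genes, by contrast in counts, were split at 16 higher and 11 lower and at 10 higher and 13 lower. The further snoRNA genes and the small nuclear RNA genes leaned opposite ways in both comparisons. Any gene with the SEMA3E array lowest or highest therefore goes with one of these kinds by construction. The SEMA3E array was lowest in 6 of the 49, among them Snord42a, Snord13 and Snord14e, the order of most differing small nuclear RNA genes. The SEMA3E array was highest in 8, among them Snord71, Snord16a and Snord72, the direction of most differing further snoRNA genes in each comparison. The part of these leanings in the differences of the 49 genes was not tested.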

How the data were processed

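The values are the probe set intensities deposited by the authors, on a linear scale, from biotin-labelled RNA per the labels. Per the submitters' processing notes they were made with Affymetrix Expression Console, whose version, summary method, normalization and build the sources used here do not give. Each value was taken as log2(intensity + 1). Of 65956 probe sets, 30604 had a single distinct symbol in the platform annotation, 2146 several and 33206 none. The brightest probe set was kept per gene (3 of the 49 genes had more than 1). A further 45 probe sets carry a snoRNA or scaRNA symbol beside others and are not named. Of 43 of these at 5.5 or more, 10 differed (23.3%) and 1 reached a ratio of 5 to 4. The share that differed was near the 25.2% of all genes and below the 61.2% of the 49 genes. A ratio of 5 to 4 was reached by 1.53% of all genes and 20.4% of the 49. The shares of the 49 genes therefore describe single-symbol probe sets only. All 49 genes matched the RefSeq table.

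The genes and lists were chosen with earlier results of these data known. Named in the text are the 10 highest and lowest genes past 5 to 4 in each comparison, the 10 brightest, scaRNA, precursor-processing and imprinted genes, those next to the threshold, and containing genes; the others were added afterwards. Differences between arrays were counted and compared with the same counts over all genes at 5.5 or more. Alternatives were a pseudocount of 16, centring, quantile normalization, loess (span 0.3), thresholds of 7 or none, the mean of probe sets and 1.5-fold. The counting was tested on simulated data. Python 3.11.15, numpy 2.4.6, pandas 2.3.3, statsmodels 0.14.6 and matplotlib 3.10.9 were used.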

Additional observations from a re-analysis of the deposited data

How the results depend on the processing

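Of 84 counts recomputed under the alternatives, 73 stayed within 1.5 times their value. With a threshold of 7, 28 genes remained, and the counts past a ratio of 5 to 4 became 2 lower with SEMA3E against control, 0 lower with the IgG against control, and 1 box H/ACA gene in any comparison. At 1.5-fold, 0 genes were higher and 2 lower with SEMA3E against control, 2 were higher and 0 lower with the IgG against SEMA3E, and 0 were higher with the IgG against control, leaving 2 box C/D genes and 1 box H/ACA gene in any comparison. Fewer genes pass by construction in both cases. Of the 17 single differences of 5 to 4 or more, 0 of 148 values reversed, but the alternatives left little room for a reversal. Thresholds and the 1.5-fold limit leave the difference itself as it is. Scaling moved the median over all genes by −0.017 to 0.003, against the limit of 0.322. At 1.5-fold 12 fell short, and Snord98 fell short of 5 to 4 after centring, with 0.317 between the IgG and control. Among smaller differences, Snora69 between SEMA3E and the IgG (−0.01) turned under quantile normalization. Setting values below 5.5 to 5.5, chosen after seeing the data, moved no count by over 1.5 times. No paired analysis was possible because each medium has 1 array. Values near the threshold, such as those of Snord49b and Snora2b, lie at the level of weak signal on these arrays.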
